A study of Mus musculus with 8 samples.

Results

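Collagens are secreted triple-helical proteins of the extracellular matrix, and the array used here read 42 mouse genes named as collagen chains, out of 18193 genes with a probe set of 1 gene symbol. Members were taken by name, as every gene symbol made of Col, a type number, the letter a and a chain number. The brightest probe set of each gene stood for it. Of the 42 genes, 28 lay above a limit for dim probe sets, a mean signal of about 93.7, and 14 lay under it and were not tested.

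Arrays were run on RNA of 8 clones of mouse induced pluripotent stem (iPS) cells, 1 array per clone, to compare iPS derivation with and without ascorbic acid (vitamin C). All 8 clones came from fibroblasts of Col-OKSM reprogrammable mouse embryos, in which doxycycline induces Oct4, Sox2, Klf4 and cMyc. Ascorbic acid was in the medium of 4 clones during derivation and absent for the other 4. All shared the rest of the medium, with serum, LIF and doxycycline, and a layer of irradiated feeder fibroblasts. Before RNA extraction feeders were depleted by preplating, and the "Col" of the strain name stands for the Col1a1 locus, which carries the transgene. The labels call the clones biological replicates without naming their embryos or cultures, so the p-values here reflect clone-to-clone spread, part of which may be technical. Feeders are fibroblasts, which make much collagen, and in these bulk RNA samples fewer cells of a type and less RNA per cell cannot be told apart.

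Collagen chains assemble as trimers. Fibrillar collagens (types I, II, III, V, XI, XXIV and XXVII) form the banded fibres of connective tissue, and type I is the main product of fibroblasts. Type IV collagens form the sheet-like network of basement membranes, and early embryonic cells, above all those of the extraembryonic endoderm, lay down such membranes. Ascorbic acid is known as the cofactor of the enzymes that hydroxylate prolines and lysines in collagen chains, a step after translation that arrays of RNA do not read.

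No collagen gene passed the test for a difference between the groups. Each gene was compared as with minus without ascorbic acid on log2(signal + 16) with limma, and p-values were adjusted by the Benjamini-Hochberg method over all 13125 tested genes at a threshold of 0.05. Of the 28 tested collagens 0 passed, where 0.0229% of all tested genes did, and the smallest adjusted p of a collagen was 0.767. At an unadjusted limma p under 0.05 there were 3 collagens, Col1a2, Col3a1 and Col5a1, all with the lower mean in the clones with ascorbic acid, a direction and level reached by 2.77% of all tested genes (5.83% in either direction and 3.06% higher). That count was 5 without clone 2 with ascorbic acid, 1 without clone 1 of the other group and 0 when arrays were centred on their medians. The shares above are of the main fit. Those of all genes in the other settings are not given here, so these counts are not read as results about collagens.

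By sign alone, 19 of the 28 tested collagens had the lower mean with ascorbic acid and 9 the higher, with a median log2 difference of -0.11. Over all tested genes 51.4% were lower and the median was -0.0042. The groups of 4 clones did not overlap in 1 of the 28, Col13a1 (lower with ascorbic acid), where 1.57% of all genes were separated in that direction and 3.63% in either.

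The fibrillar chains of types I, III and V had lower mean signals with ascorbic acid in 5 of their 6 genes by log2 differences of -0.34 to -0.24, and in Col5a3 by less, without passing the test over all genes. All 11 fibrillar genes had a probe set and 9 lay above the dim limit. Of these, 7 had the lower mean with ascorbic acid and 2 the higher, and their median log2 difference was -0.24. Col5a3 is among the 7 at -0.018 and turned to 0.016 when arrays were centred on their medians.

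Col1a1, the alpha 1 chain of type I collagen, read 2652, 3243, 1707 and 2912 in clones 1 to 4 with ascorbic acid and 3396, 2947, 3081 and 3440 in clones 1 to 4 without. Clone 3 with ascorbic acid stood below all others, and clone 2 with it lay inside the range of the other group. The log2 difference was -0.33 ± 0.15 (SE), with a 95% interval of -0.66 to 0.011 (limma, adjusted p = 0.844), and without that clone 3 it was -0.13.

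Col1a2, which pairs with Col1a1 in the type I trimer, read 3658, 4766, 3341 and 3212 with ascorbic acid and 5168, 4485, 4633 and 4046 without. The lower values belonged to clones 1, 3 and 4 with ascorbic acid, and clone 2 with it exceeded 3 of the 4 clones of the other group. The log2 difference was -0.30 ± 0.11 (SE), with a 95% interval of -0.55 to -0.055 (limma, unadjusted p = 0.0206, adjusted p = 0.782). The log2 ratio of the 2 type I chains differed by -0.023 between groups, with an SD of 0.34 among the clones with ascorbic acid and 0.18 among those without.

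Col3a1, the only chain of type III collagen, which forms fine fibres together with type I, read 1305, 1522, 1168 and 1051 with ascorbic acid and 1940, 1789, 1449 and 1244 without. The groups overlapped, since clone 4 without ascorbic acid lay below clones 1 and 2 with it. The log2 difference was -0.34 ± 0.14 (SE; 95% interval -0.64 to -0.034; limma, unadjusted p = 0.0321, adjusted p = 0.823).

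The chains of type V, a minor collagen that nucleates type I fibres, were split. Col5a1 read 1490, 1778, 1461 and 1326 with ascorbic acid and 1906, 1848, 1728 and 1633 without, and clone 2 with it was the only one to reach into the range of the other group. Its log2 difference was -0.24 ± 0.087 (SE; 95% interval -0.42 to -0.047; limma, unadjusted p = 0.0184, adjusted p = 0.767). Col5a2 read 1129, 1495, 996 and 1081 against 1642, 1520, 1379 and 1095, a log2 difference of -0.26 ± 0.14 (SE; limma, adjusted p = 0.844). Col5a3, the third chain, read 422, 334, 295 and 393 against 390, 387, 328 and 347, and the range without ascorbic acid lay inside that with it (-0.018 ± 0.12, SE; 95% interval -0.29 to 0.25).

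The remaining tested fibrillar genes are best known from cartilage, and they did not share the sign of types I and III throughout. Col2a1, the main cartilage collagen, read 199 to 261 with ascorbic acid and 200 to 252 without, a log2 difference of 0.021 ± 0.13 (SE). Col11a1, its partner in cartilage fibres, read 150 to 193 and 169 to 234 (-0.15 ± 0.15, SE), and its difference was -0.076 without clone 1 with ascorbic acid and -0.074 without clone 3 of the other group. Col27a1 scattered more than any other tested collagen, at 228, 472, 337 and 83.5 with ascorbic acid and 256, 85.1, 103 and 162 without. Its log2 difference of 0.71 ± 0.43 (SE) had a 95% interval of -0.23 to 1.65. It was 0.40 without clone 2 and 1.16 without clone 4 with ascorbic acid, and its second probe set, at 0.021 ± 0.42 (SE), did not repeat that size. Col11a2 and Col24a1 lay under the limit.

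**Figure D1:**
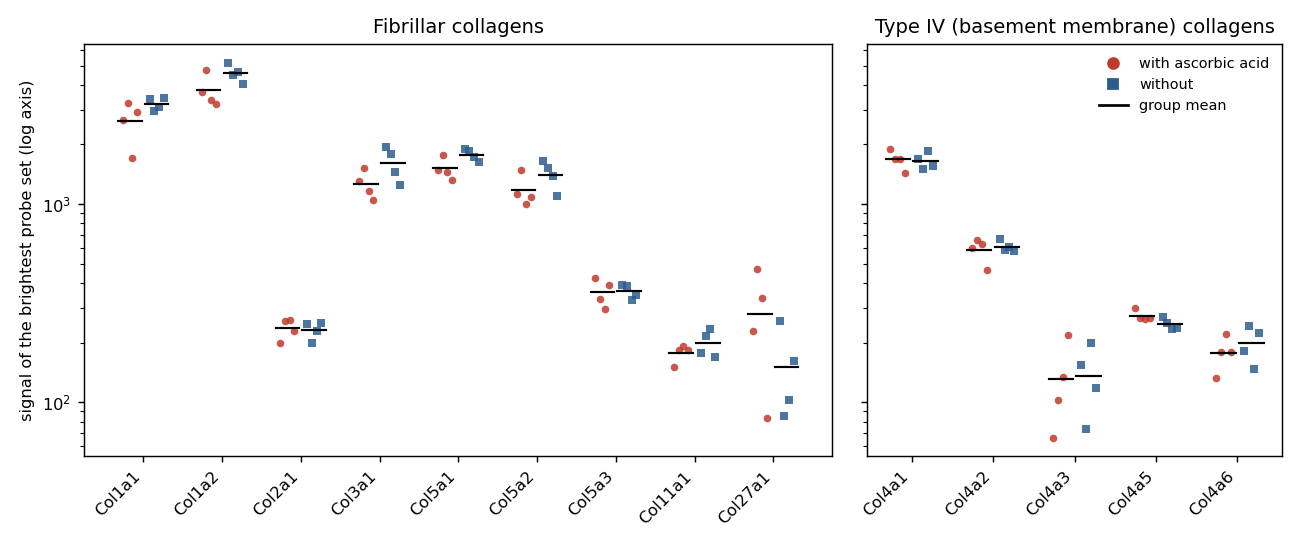
Signal of the brightest probe set (log axis) of the 9 fibrillar and 5 type IV collagen genes above the dim limit, 1 point per clone, circles with and squares without ascorbic acid, black lines at the group means. Col1a1, Col1a2, Col3a1, Col5a1 and Col5a2 have lower group means with ascorbic acid but overlapping points, and the type IV genes have means close together.

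The same clones were low or high for these chains. Over Col1a1, Col1a2, Col3a1, Col5a1 and Col5a2, a choice of 5 genes made after their values were seen, clone 1 without ascorbic acid was highest of the 8 clones in 4 genes, and clone 4 without it in the other. The lowest value belonged to clone 4 with ascorbic acid in 3 genes and to clone 3 with it in 2. Clone 2 with ascorbic acid ranked in the upper 4 of 8 for all 5 genes, like clones 1 and 3 of the other group, and clone 4 without ascorbic acid ranked in the lower 4 for 4 of them.

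Other probe sets of these genes gave values of like size. Of all 15 fibrillar probe sets above the limit, 12 had the lower mean with ascorbic acid. These counts include the 9 brightest probe sets already described, of which 7 were lower. The second probe set of Col1a1 gave a log2 difference of -0.23, that of Col1a2 -0.26 and that of Col3a1 -0.24. That Col3a1 probe set was close to the dim limit, at a mean signal of 110, with a 95% interval of -0.71 to 0.22. The 3 probe sets of Col5a1 lay between -0.24 and -0.19. In 1 of the latter the groups did not overlap, at 306 to 383 with and 384 to 437 without ascorbic acid, a margin of a single signal unit (lower without overlap in 1.69% of all 27022 probe sets above the limit).

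The 100 bases before the transcription start are shown for the 3 fibrillar genes with an unadjusted p under 0.05, beside Col4a5 of type IV, to set the start regions of the 2 classes side by side. They come from RefSeq on build GRCm38.p6, are written 5′ to 3′ on the gene's strand, and carry matches to the GC box letters GGGCGG, on either strand (CCGCCC), in capitals.
Col1a2, chr6:4505518-4505617, plus strand: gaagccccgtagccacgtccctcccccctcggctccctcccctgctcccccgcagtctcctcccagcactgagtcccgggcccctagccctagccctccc
Col3a1, chr1:45311438-45311537, plus strand: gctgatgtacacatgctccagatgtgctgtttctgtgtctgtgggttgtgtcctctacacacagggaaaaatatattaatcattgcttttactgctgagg
Col5a1, chr2:27886325-27886424, plus strand: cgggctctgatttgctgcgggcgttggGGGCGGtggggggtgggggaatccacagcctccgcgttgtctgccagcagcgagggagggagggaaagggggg
Col4a5, chrX:141475319-141475418, plus strand: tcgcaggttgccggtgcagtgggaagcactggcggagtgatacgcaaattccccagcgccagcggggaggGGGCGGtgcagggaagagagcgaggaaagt

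The letters GGGCGG occur in 1 copy each in the Col5a1 and Col4a5 stretches and not in those of Col1a2 and Col3a1. Promoter windows were listed for 33 of the 42 collagens. Of their 36 windows 47.2% held GGGCGG in these 100 bases, where 24.7% of all 32851 windows did. It stood in 4 of the 6 fibrillar and 3 of the 4 type IV windows of genes above the limit, so both classes held it. The letters CCAAT (or ATTGG on the other strand) stood in 11.1% of collagen windows and 18.9% of all windows. TATAAA (or TTTATA) stood in 5.56% of both. A match is a description of the sequence.

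Type IV collagens had group means close together on their brightest probe sets. All 6 genes had a probe set and 5 lay above the limit, Col4a4 being the exception. Of the 5, 3 had the lower mean with ascorbic acid and 2 the higher, with a median log2 difference of -0.059, and 0 had an unadjusted p under 0.05. The median turned to 0.044 without clone 4 with ascorbic acid and to 0.082 without clone 3 of the other group.

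Col4a1, which with Col4a2 makes the widespread form of the type IV trimer, read 1898, 1697, 1695 and 1431 with ascorbic acid and 1693, 1497, 1850 and 1551 without. The groups shared most of their range, and the log2 difference was 0.026 ± 0.091 (SE), with a 95% interval of -0.17 to 0.22 (limma, adjusted p = 0.978). Its sign turned in array weighting (-0.0063) and with the mean of its probe sets (-0.27). Col4a2 read 598, 657, 633 and 468 against 668, 590, 605 and 580, a log2 difference of -0.059 ± 0.11 (SE; 95% interval -0.29 to 0.17; limma, adjusted p = 0.957), which was 0.044 without clone 4 with ascorbic acid.

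Col4a1 and Col4a2 lie head to head on chromosome 8 and are transcribed away from each other. Their RefSeq starts lie at position 11312826 on the minus strand and 11312805 on the plus strand, so the first 22 bases of both transcripts overlap on opposite strands. The 30 bases around the starts are shown on the plus strand because both genes begin here, with the shared bases in capitals.
Col4a1 and Col4a2 starts, chr8:11312801-11312830: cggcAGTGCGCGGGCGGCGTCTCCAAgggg
The log2 ratio of the 2 genes, on their brightest probe sets, differed by 0.085 between groups, with an SD of 0.14 with and 0.13 without ascorbic acid.

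The other Col4a1 probe set gave another picture. It read 616, 751, 646 and 513 in clones 1 to 4 with ascorbic acid and 1032, 988, 942 and 770 in clones 1 to 4 without. All 4 clones with ascorbic acid lay below all 4 without, by a narrow margin between 751 and 770. The log2 difference was -0.56 ± 0.12 (SE), with a 95% interval of -0.82 to -0.30, or 1.47-fold higher without ascorbic acid. In limma over all 27022 probe sets above the limit the unadjusted p was 0.000568 and the adjusted p 0.426, so it did not pass (0.0481% of these probe sets passed, and 2.92% had an unadjusted p under 0.05 and the lower mean with ascorbic acid). This probe set was singled out after its values were seen, and 1.69% of all probe sets above the limit were separated in this direction. The ratio of its signal to that of the brighter probe set was 0.324, 0.442, 0.381 and 0.358 in clones 1 to 4 with ascorbic acid and 0.609, 0.66, 0.509 and 0.497 without, so the 2 probe sets of this gene differed unequally between the groups. Which transcript forms each probe set reads was not analysed here.

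**Figure D2:**
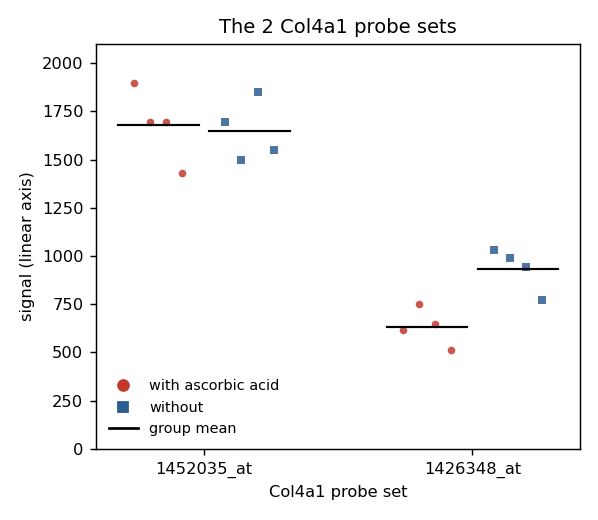
Signal (linear axis) of the 2 Col4a1 probe sets, 1 point per clone, circles with and squares without ascorbic acid, black lines at the group means. The brighter probe set overlaps between groups, at 1431 to 1898 with and 1497 to 1850 without, while the dimmer one lies at 513 to 751 with and 770 to 1032 without.

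The chains of the tissue-restricted type IV trimers showed no common sign. Col4a5, mutated in Alport syndrome, read 299, 266, 264 and 266 with ascorbic acid and 269, 251, 235 and 237 without (log2 difference 0.13 ± 0.11, SE; 95% interval -0.11 to 0.38). Clone 1 without ascorbic acid was the only one of its group to reach the other, and the second Col4a5 probe set was at -0.042. Col4a6, its neighbour on the X chromosome, read 132 to 221 with and 147 to 244 without (-0.15 ± 0.19, SE), with values of -0.28 to -0.029 on leaving out 1 clone, the latter without clone 1 with ascorbic acid. Col4a3, a chain of the kidney filter's basement membrane, read 66.4 to 219 and 73.7 to 199, a spread so wide that its 95% interval ran from -0.80 to 0.63.

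Set against each other, the fibrillar and type IV classes did not stand clearly apart. The mean log2 value of the 9 fibrillar genes minus that of the 5 type IV genes was 1.16, 1.33, 0.86 and 0.79 in clones 1 to 4 with ascorbic acid and 1.22, 1.18, 0.99 and 1.04 in clones 1 to 4 without. The clones with ascorbic acid held both the highest and the lowest values. The group means were 1.04 ± 0.25 and 1.11 ± 0.11 (SD, n = 4 each), a difference of -0.072, smaller than the SD of either group. No p is given for a score over genes chosen with earlier results known.

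This class difference followed single choices. Without Col27a1 it was -0.17, with the median over genes of deviations from each gene's mean it was -0.26, and with Col4a1 read by its dimmer probe set it was 0.044. With Col27a1 left out and the dimmer Col4a1 probe set used, it was -0.057. These 4 settings were chosen after the data were seen. It was 0.0097 without clone 4 and -0.014 without clone 3 with ascorbic acid, and -0.17 without clone 2 with it. Adding Col18a1, of type XVIII, to the type IV genes left it at -0.074; Col15a1, of type XV, lay under the limit and was not counted.

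**Figure D3:**
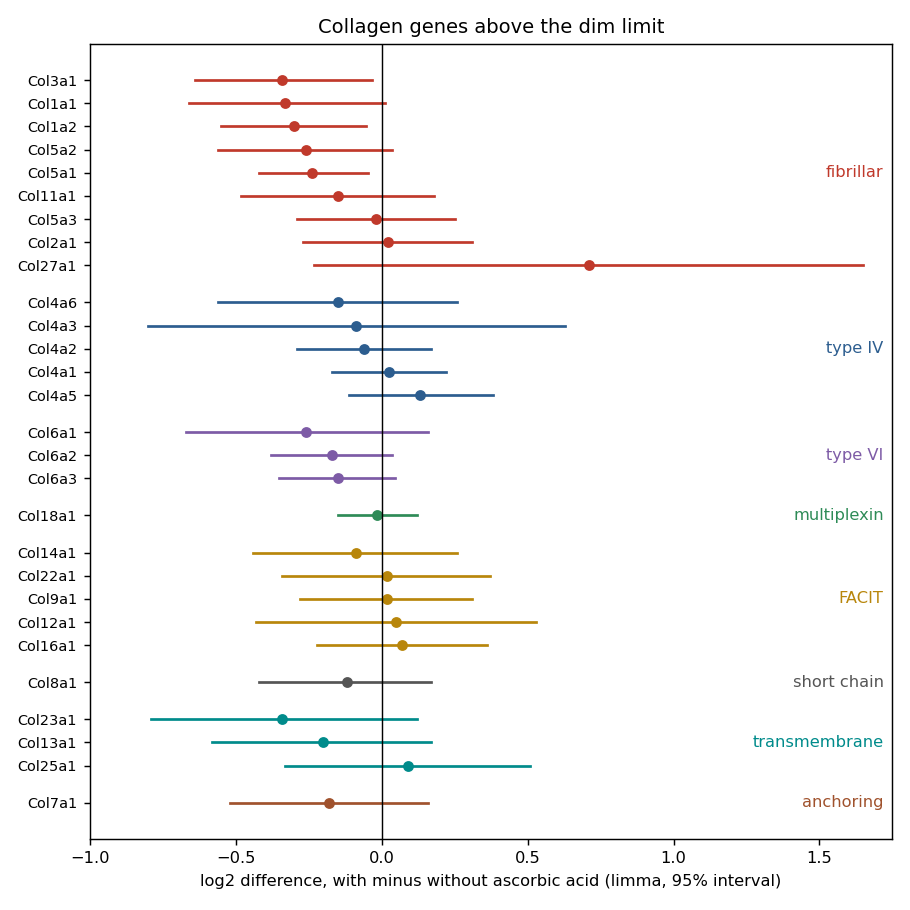
Log2 difference, with minus without ascorbic acid, of the 28 collagen genes above the dim limit, grouped by class, with lines for the 95% interval of the limma fit. Intervals of Col1a2, Col3a1 and Col5a1 lie below 0 before adjustment for multiple tests, and those of the other 25 genes include 0.

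Type VI collagen forms beaded microfibrils around many cells, and its 3 tested chains had the lower mean with ascorbic acid. Col6a1 read 480, 537, 523 and 349 with and 637, 768, 380 and 523 without, a log2 difference of -0.26 ± 0.19 (SE; limma, adjusted p = 0.881). It was -0.12 without clone 4 with ascorbic acid, and -0.11 without clone 2 and -0.43 without clone 3 of the other group. Col6a2 read 708, 747, 608 and 834 against 780, 835, 771 and 870 (-0.17 ± 0.095, SE; adjusted p = 0.844 in limma), from a probe set (_x_at) whose probes may also match other transcripts, and was at -0.094 without clone 3 with ascorbic acid. Col6a3 read 492, 511, 480 and 437 against 599, 517, 523 and 503, with a single clone of the other group reaching into the range with ascorbic acid (-0.15 ± 0.090, SE; limma, adjusted p = 0.844). Col6a4 and Col6a5 lay under the limit.

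Type XVIII collagen, a basement membrane collagen whose end piece is endostatin, was the steadiest tested member on brightest probe sets. Col18a1 read 4064, 4144, 4145 and 4557 with ascorbic acid and 4213, 4606, 4191 and 4062 without, on an _s_at probe set. The log2 difference was -0.014 ± 0.061 (SE), with a 95% interval of -0.15 to 0.12. Its second probe set was at -0.011 but scattered more with ascorbic acid, at 3046 to 4451 with and 3736 to 3880 without. On the brightest probe set the sign turned to 0.02 when arrays were centred on their medians. Col15a1, the related chain of type XV, sat at the limit: its arithmetic mean signal was 98.3, but its mean on the log scale, which the limit uses, was 90.2, so it was not tested. It read 133, 126, 143 and 55.7 with ascorbic acid and 112, 64.9, 31.9 and 120 without. Just inside the limit stood Col13a1, with a log-scale mean of 106, and next under Col15a1 stood Col11a2, at 81.4.

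In the other classes the 95% interval of every tested gene included 0. Of 5 tested collagens of the FACIT class, which coat fibrils, 4 had the higher mean with ascorbic acid and 1 the lower, with a median of 0.018. Col12a1 of this class read 269 to 304 with ascorbic acid and 184 to 471 without (0.051 ± 0.22, SE), the wider spread lying in the group without. It was 0.30 without clone 3 and -0.13 without clone 1 of that group. Col14a1, Col16a1, Col22a1 and Col9a1 lay between -0.086 and 0.069. Of 3 tested transmembrane collagens, Col13a1 read 106, 103, 106 and 78 with ascorbic acid and 116, 115, 120 and 108 without, fully separated by a gap of about 2 signal units close to the dim limit (-0.20 ± 0.17, SE; limma, adjusted p = 0.895; -0.11 without clone 4 with ascorbic acid). Col23a1 read 72.5 to 146 with and 119 to 165 without (-0.34 ± 0.21, SE; limma, adjusted p = 0.847; -0.19 without clone 2 with ascorbic acid), and Col25a1 was at 0.09. Col7a1, the anchoring fibril of skin, read 237 to 298 and 260 to 416 (-0.18 ± 0.16, SE), and was at -0.026 once clone 3 of the second group, which held the 416, was left out. Col8a1, a short-chain network collagen, stood at -0.12 on its brightest and 0.19 on its second probe set.

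The 14 collagens under the limit were Col4a4, Col6a4, Col6a5, Col8a2, Col9a2, Col9a3, Col10a1, Col11a2, Col15a1, Col17a1, Col19a1, Col20a1, Col24a1 and Col26a1. Their mean signals over the 8 arrays ran from 10.8 in Col24a1 to 98.3 in Col15a1. No direction is given for them. Of 11 collagens with 2 or more probe sets above the limit, 8 had probe sets of 1 sign and 3 (Col4a1, Col4a5 and Col8a1) had both.

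Fibroblast and feeder markers mostly had the sign of the fibrillar chains. Of 35 listed markers without collagens, 29 were tested, and 24 of these had the lower mean with ascorbic acid, with a median log2 difference of -0.12. The test over all genes was passed by 0 of them, with 4 at an unadjusted limma p under 0.05, 3 lower and 1 (Twist1) higher with ascorbic acid (2.77% and 3.06% of all tested genes). Their summed signal was 66196 to 78551 per clone with ascorbic acid and 73174 to 80618 without. Fbn1 had no probe set of its own, and Dcn, Lum, Fap, Twist2 and Sparcl1 lay under the limit, Sparcl1 at 8.57 to 26.2 with and 8.06 to 64.2 without. Others were well above it, such as Vim at 11871 and 13535 and Fn1 at 11842 and 13281. Postn, a matrix protein of fibroblasts, read 357, 333, 286 and 292 against 389, 427, 440 and 405 (-0.38 ± 0.11, SE; limma, adjusted p = 0.749). Twist1, a mesenchymal transcription factor, went the other way at 0.52 ± 0.16 (SE; limma, adjusted p = 0.749). The median of the markers was -0.062 without clone 3 with ascorbic acid and -0.058 without clone 2 of the other group.

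By clone, the markers and the fibrillar genes shared part of their order. As mean log2 deviations from each gene's mean over 8 arrays, the markers stood at 0.0014, 0.064, -0.16 and -0.071 in clones 1 to 4 with ascorbic acid and 0.08, 0.17, 0.011 and -0.093 in clones 1 to 4 without. The 9 fibrillar genes stood at -0.076, 0.24, -0.12 and -0.24 and at 0.24, 0.0067, -0.0078 and -0.044. The 5 type IV genes stood at -0.16, -0.019, 0.092 and 0.036 and at 0.10, -0.10, 0.071 and -0.014. The 10 tested basement membrane partners, such as laminins and nidogens, stood at -0.059, 0.051, 0.0068 and -0.22 and at 0.08, 0.047, -0.017 and 0.11. Clone 2 was the highest with ascorbic acid for markers, fibrillar genes and these partners but not for type IV. Clone 4 with it was the lowest for the fibrillar genes and the partners. Clone 3 with it was lowest for the markers but highest of its group for type IV. Among the clones without ascorbic acid, clone 4 was the lowest for the markers and the fibrillar genes but the highest for the partners. The part of feeder RNA in the fibrillar values was not tested.

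**Figure D4:**
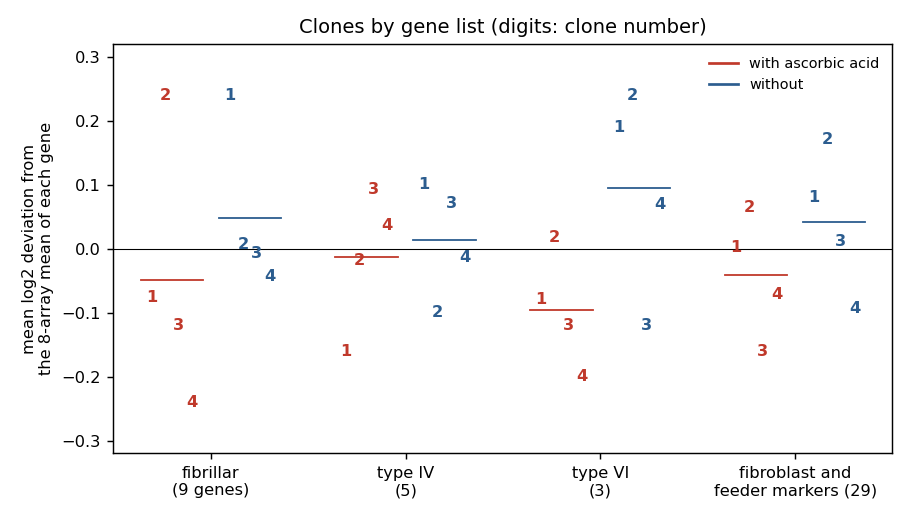
Mean log2 deviation from each gene's 8-array mean for 9 fibrillar, 5 type IV and 3 type VI collagens and 29 fibroblast and feeder markers, digits giving the clone number, in 1 colour with and the other without ascorbic acid, lines at the group means. Groups overlap in all 4 lists, and the type IV means (-0.014 and 0.014) lie closest together.

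Markers of other sources were read beside the type IV genes. Of 16 extraembryonic endoderm markers 11 were tested, 6 lower and 5 higher with ascorbic acid (median -0.077), with a summed signal of 6728 to 8904 with and 7360 to 9792 without. Afp, Ttr, Cubn and Sox7 lay under the limit. Afp read 7.85 to 14.8 with ascorbic acid and 13.2 to 55.2 without, where the 55.2 was that of clone 1. Cst3 had a log2 difference of -0.23 and Gata6 of 0.31, which was 0.17 without clone 1 with ascorbic acid. Of 8 endothelial markers 6 were tested, 5 of them lower (median -0.022; summed signal 1003 to 1132 with and 1056 to 1189 without), with Emcn at -0.27 (-0.16 without clone 1 with ascorbic acid) and Tek at -0.24 (-0.07 without clone 2 of the other group). Tie1 was at a signal of 4.42 and 4.11. Of the 14 pluripotency markers 13 also had the lower mean with ascorbic acid. The median of this list was -0.12, as for the fibroblast and feeder markers. Its summed signal was 89089 to 100797 with and 100467 to 103651 without. Tbx3 was at -0.28 and Klf2 at -0.30 (limma, adjusted p = 0.616 and 0.697). In both the groups did not overlap, as in 1.57% of all tested genes in that direction. An unadjusted limma p under 0.05 was reached by 3 pluripotency markers and 1 extraembryonic endoderm marker, all lower, and by 0 endothelial markers. At that level 2.77% of all tested genes were lower. None of these markers passed the test over all genes, and their part in the collagen values was not tested.

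The genes that process collagen chains gave 0 past the threshold. Inside the cell, hydroxylases, glycosyltransferases and chaperones prepare the chains, and 11 of 14 such genes had the lower mean with ascorbic acid and 3 the higher, with a median of -0.091. Crtap, a subunit of the prolyl 3-hydroxylase complex, read 1945, 2176, 1819 and 1862 against 2125, 2240, 2402 and 2258 (-0.21 ± 0.068, SE; limma, adjusted p = 0.749). Plod3, a lysyl hydroxylase, read 1923 to 2277 with and 2300 to 2416 without, with no overlap, as in 1.57% of all tested genes in that direction (-0.17 ± 0.061, SE; limma, adjusted p = 0.767).

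Outside the cell, propeptides are cut and chains are crosslinked, and 7 of 8 tested genes of these steps had the lower mean (median -0.11). Lox, which crosslinks fibrillar collagen, read 2003, 2388, 1689 and 1820 against 2599, 2607, 2117 and 2158 (-0.27 ± 0.11, SE; limma, adjusted p = 0.812). Pxdn, a peroxidase that crosslinks type IV collagen, was the 1 gene of the list on the other side, at 955, 924, 925 and 903 with and 843, 809, 896 and 789 without. Its groups did not overlap, as in 2.06% of all tested genes in that direction (0.15 ± 0.066, SE; limma, adjusted p = 0.836).

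Basement membrane partners of type IV collagen, such as laminins, nidogens and perlecan, were lower in 9 of 10 tested genes (median -0.068), and 3, all lower, had an unadjusted limma p under 0.05, where 2.77% of all tested genes were lower at that level. Nid1, which links laminin to type IV collagen, read 2074, 2131, 1924 and 1748 against 2448, 2507, 2216 and 2228 with no overlap, a separation seen in 1.57% of all tested genes (-0.25 ± 0.073, SE; limma, adjusted p = 0.749). Nid2, its paralog, was at -0.22 ± 0.085 (SE; limma, adjusted p = 0.796). Of 6 tested collagen receptors 3 were lower and 3 higher (median 0.039). Itgb1, the beta chain of the collagen-binding integrins, was at -0.19 ± 0.066 (SE; limma, adjusted p = 0.757) and Ddr1, a receptor tyrosine kinase for collagen, at 0.34 ± 0.12 (SE; limma, adjusted p = 0.767), which was 0.12 when _s_at and _x_at probe sets were left out.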

How the data were processed

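Total RNA of 8 clones was read on Affymetrix mouse expression arrays. The authors deposited linear signal intensities, 1 per probe set and array. GCOS is the tool in the submitters' processing notes, and its version and settings were not stated there. After trimming 2% of values at each end, the mean signal was 500, averaged over the 8 arrays. Array medians were 134 to 156, and arrays correlated at 0.970 to 0.977 over all probe sets on the log2 scale. Precision is limited by the number of arrays.

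Of 45101 probe sets, 64 controls were left out, and 34945 have 1 gene symbol, 932 several and 9160 none in the platform annotation; 99.4% of the single symbols matched RefSeq (GRCm38.p6) and 0 were renamed. The files name no genome build, so coordinates are given for RefSeq sequences only. Probe sets in the lowest 40% by mean log2(signal + 16) were left out, and the brightest probe set by that mean stood for a gene. By arithmetic mean the choice was the same in 41 of 42 collagens. Ratios and score differences between probe sets are read only across clones, not as relative amounts of their transcripts.

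limma 3.58.1 (R 4.3.3) was fitted over all 13125 genes on all 8 arrays with an intensity trend, two-sided, after tests on simulated data. Named were all fibrillar and type IV collagens above the limit, tested members of types VI, XII and XVIII (type XV was under the limit), the 6 collagens outside the fibrillar and type IV classes with the smallest p (3 of them of type VI), and from each other list the 2 genes with the smallest p. Other collagens, further markers (Vim, Fn1 and those under the limit) and second probe sets were added after their values were seen. Members and lists were chosen with earlier results of these data known. Alternatives were other scalings, pseudocounts of 1 and 64, no filter or 60%, other probe set rules, other eBayes settings, a replicate block and leaving out each clone.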

Additional observations from a re-analysis of the deposited data

Results flagged for a closer look

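In groups of 4 clones, a value was marked where its gap to the nearest other clone took up by far the largest part of the group's range. Lesser gaps were not marked, such as that of Col1a2 in clone 2 with ascorbic acid (4766, others 3212 to 3658). Of 78 such groups of named genes and the dimmer Col4a1 probe set, 7 (8.97%) held a value of this kind, where chance gives about 5%.

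Among the collagens, clone 4 with ascorbic acid read 78 for Col13a1 (others 103 to 106) and 4557 for Col18a1 (others 4064 to 4145). Clone 1 with ascorbic acid read 299 for Col4a5, against 264 to 266. Clone 3 without ascorbic acid read 416 for Col7a1, against 260 to 275. Outside the collagens, clone 2 without ascorbic acid read 1057 for the collagen receptor Ddr1 (others 810 to 842) and 357 for Tek (others 215 to 227). Clone 2 with ascorbic acid read 161 for Twist1, against 212 to 217.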

How the results depend on the processing

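The count of 0 collagens past the threshold held in all 20 other settings tried, 8 of which leave out 1 clone, while 3 genes passed over all genes and 1 to 4 in those settings. At an unadjusted limma p under 0.05, 5 of 42 collagens stood without a filter and 2 of 28 without the intensity trend, against 3 of 28. The shares of all genes at that level in these settings are not given here. Of 22 named collagens 15 kept their sign in every such setting that tested them, and of 38 named genes 31 kept sign and side of the threshold; 9 of the 38 were not tested with the 60% filter. The median of the fibrillar genes was -0.26 to -0.15 across settings and -0.32 to -0.18 on leaving out a clone. That of the type IV genes was -0.10 to 0.082 on leaving out a clone and 0.026 with the 60% filter, where 3 of its genes were tested. The class difference was -0.17 to 0.0097 on leaving out a clone, 0.0019 without a filter and -0.24 with the 60% filter.

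Signs turned with median centring for Col18a1 (0.02) and Col5a3 (0.016), and for Col4a1 with array weights (-0.0063), the mean of its probe sets (-0.27) and the dimmer probe set, chosen after the data were seen (-0.56); the cause was not tested. On leaving out a clone the ranges crossed 0 for Col12a1 (-0.13 to 0.30), Col18a1 (-0.05 to 0.024), Col2a1 (-0.045 to 0.10), Col4a1 (-0.035 to 0.10), Col4a2 (-0.11 to 0.044), Col4a3 (-0.35 to 0.15) and Col5a3 (-0.094 to 0.07). With the clone number as a replicate block 0 collagens passed and the fibrillar median stayed at -0.24. In that fit 5 collagens had an unadjusted limma p under 0.05 in place of 3, and the share of all genes is not given here. Deviations of same-numbered clones correlated at -0.165 to 0.012, and those of other pairs across the groups at -0.158 to 0.213. A shared source of small effect could be missed this way, and the labels do not say whether the numbers pair the clones.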
